A study of Mus musculus with 6 samples.

Results

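Clock output transcription factors carry the daily rhythm of the circadian clock to other genes. The 8 described here, Tef, Dbp, Hlf, Nfil3, Bhlhe40, Bhlhe41, Rora and Ciart, were chosen by gene symbol from the 31053 genes measured, and each symbol was found in all 6 libraries. The core clock is a feedback loop in which the CLOCK and BMAL1 (gene Arntl) proteins bind DNA sites called E-boxes and drive the Per and Cry genes, whose proteins then inhibit them. TEF, DBP and HLF are related activators that bind a second kind of site, the D-box, and are themselves driven in daily cycles, while NFIL3 represses from the same D-boxes. BHLHE40 and BHLHE41 (also DEC1 and DEC2) repress from E-boxes, CIART (also CHRONO) binds BMAL1 and represses the CLOCK and BMAL1 pair, and RORA is a nuclear receptor that activates Arntl.

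The libraries were made from nuclei of wild-type C57BL/6J mice, taken from the colon, as stated for the Stress and Control mice, and sorted for DNA stain and for the INTACT nuclear tag to enrich the enteric nervous system, the neurons and glia of the gut wall, and sequenced on the 10x Genomics droplet platform. The Stress group held 3 libraries from mice restrained daily for 7 days, the Dexamethasone group 1 library from mice injected with the synthetic glucocorticoid dexamethasone (labelled dexa) for 7 days, and the Control group 2 libraries from mice given the control treatment. The sources used here give neither the dose, nor the driver that placed the INTACT tag, nor the number of mice per library, nor the time of day of tissue collection. Because nothing states that libraries came from separate mice, the p-values below measure the spread between libraries, and the lone Dexamethasone library was assumed to vary as the others do.

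The files held 11040 barcodes and 58954323 unique molecular identifiers (UMIs, counted RNA molecules), between 6057994 and 14838057 UMIs per library. After removal of barcodes with under 300 genes or over 5% mitochondrially encoded UMIs and of 25 called doublets, 3436 nuclei remained, 378 to 765 per library, with library medians of 1629 to 3970 UMIs per nucleus. The second Control library stood apart, with a median mitochondrial share of 19.8% and 14.9% of its barcodes kept. Marker genes named 882 nuclei glia-like, 508 neuron-like, 783 epithelium-like, 314 smooth muscle-like, 156 lymphatic endothelium-like, 120 fibroblast-like, 75 macrophage-like and 38 vascular endothelium-like, so the sort also held many nuclei from outside the nervous system. A further 560 nuclei stayed unnamed. The glia-like nuclei came from 3 clusters, led by Frzb and Col11a1, by Nr4a3 and Arih1, and by Col28a1, and the Nr4a3-led cluster had none of the glial markers among its 10 leading genes. Any pair of libraries shared at most 3 barcodes.

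The sequence around the starts of Tef and Ciart is shown because Tef is the factor called in glia-like nuclei below and because, of the 7 genes with a window, Ciart held the most E-boxes, the sites through which the core clock acts. The windows run from 250 bases before to 50 bases after the start site, 5′ to 3′ along the gene, and come from RefSeq on build GRCm38.p6. Capitals mark the E-box CACGTG. The first Tef window is chr15:81802423-81802722 (plus strand), the second chr15:81811164-81811463 (plus strand) and the Ciart window chr3:95882179-95882478 (minus strand).
Tef, upstream start: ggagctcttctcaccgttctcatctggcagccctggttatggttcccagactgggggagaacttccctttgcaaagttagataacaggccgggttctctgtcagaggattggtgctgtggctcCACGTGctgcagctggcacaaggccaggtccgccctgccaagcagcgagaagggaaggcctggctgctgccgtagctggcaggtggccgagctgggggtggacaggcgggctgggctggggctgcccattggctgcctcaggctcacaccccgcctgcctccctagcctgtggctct
Tef, downstream start: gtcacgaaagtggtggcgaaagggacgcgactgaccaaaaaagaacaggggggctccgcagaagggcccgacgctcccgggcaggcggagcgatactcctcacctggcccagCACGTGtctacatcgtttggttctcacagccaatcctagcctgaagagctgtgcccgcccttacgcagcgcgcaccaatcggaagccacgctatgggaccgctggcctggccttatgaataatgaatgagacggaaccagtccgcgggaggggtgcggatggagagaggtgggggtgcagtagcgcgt
Ciart: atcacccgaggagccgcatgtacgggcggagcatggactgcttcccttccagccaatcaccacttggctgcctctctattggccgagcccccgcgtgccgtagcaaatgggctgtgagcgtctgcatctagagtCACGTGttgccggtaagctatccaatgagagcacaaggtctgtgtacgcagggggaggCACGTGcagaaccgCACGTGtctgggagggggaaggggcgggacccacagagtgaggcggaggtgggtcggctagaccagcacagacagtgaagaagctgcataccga
The E-box letters began 127 and 138 bases before the 2 Tef starts and 116, 58 and 44 bases before the Ciart start. Of all 32851 windows of this length, 7.15% held CACGTG at least once and 0.0883% held it 3 times or more. The Bhlhe41 window also held it once, and those of Dbp, Hlf, Nfil3 and Rora held none. Bhlhe40 had no entry. The D-boxes TTATGTAA and TTACGTAA, searched on both strands like the other motifs, were in 0.938% and 0.119% of all windows and in none of those of the 7 genes. The ROR element TAGGTCA, in 2.61% of windows, was found only in that of Nfil3 among the 7.

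On build GRCm38.p6, Tef lies on chromosome 15 (81802673 to 81826863), Dbp on chromosome 7 (45705100 to 45710203), Hlf on chromosome 11 (90336535 to 90390917) and Nfil3 on chromosome 13 (52967209 to 52982878). Bhlhe40 (108660629 to 108666925) and Bhlhe41 (145858243 to 145865420) both lie on chromosome 6, Rora on chromosome 9 (68653404 to 69388246) and Ciart on chromosome 3 (95878500 to 95882257).

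Among the D-box activators, Tef rose in the glia-like nuclei of stressed mice. Tef had 186, 166 and 161 CPM (UMIs per 1000000 UMIs of the class) in the 3 Stress libraries, 92.0 in the Dexamethasone library, and 51.4 and 40.9 in the 2 Control libraries, from 58, 80, 145, 62, 24 and 18 UMIs. The mean was 171 ± 13.1 in Stress glia-like nuclei (SD, n = 3) and 46.1 ± 7.44 in Control glia-like nuclei (SD, n = 2). The lowest Stress library was above the higher Control library, and the Dexamethasone library lay between the groups. Stress and Control did not overlap, in either direction, for 29.3% of genes tested in glia-like nuclei. The fitted log2 fold change of Tef, Stress over Control, was 1.82 ± 0.25 (SE), 3.54-fold, with a Benjamini-Hochberg adjusted p of 0.00224 by edgeR's quasi-likelihood test. Across all genes tested in glia-like nuclei, 1.99% passed this threshold of 0.05 and 1.45% passed it as higher.

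**Figure D1:**
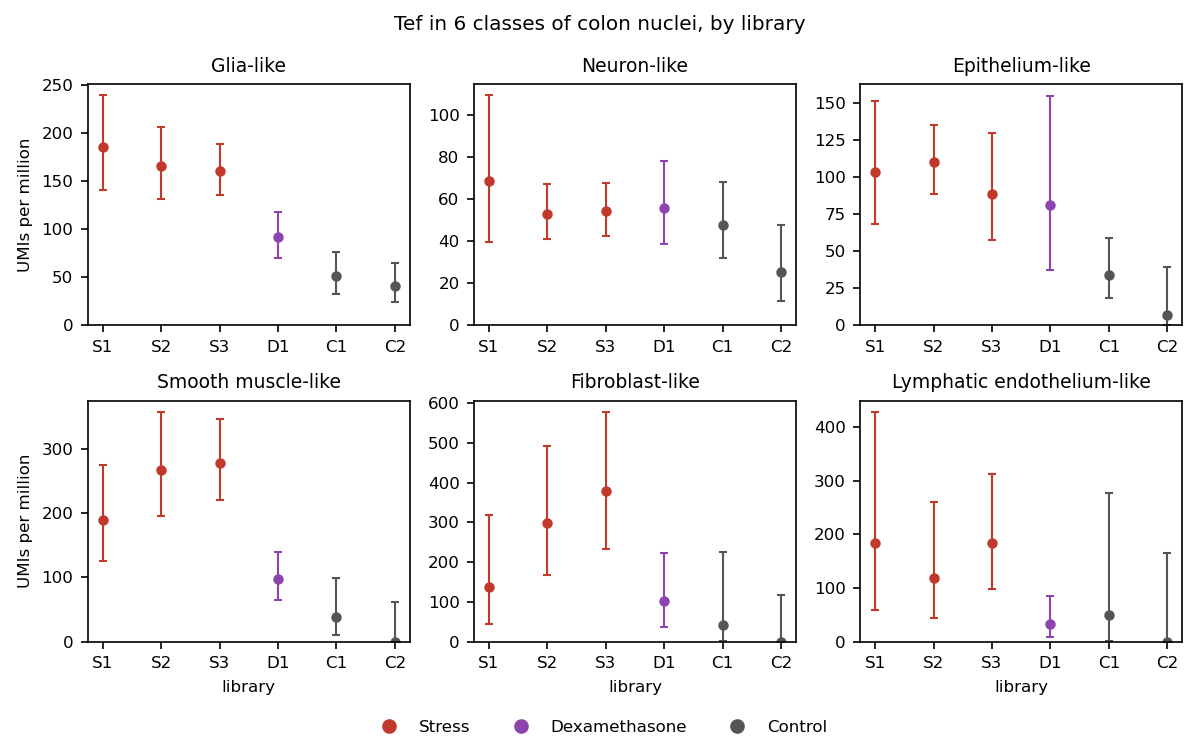
Tef level (CPM, UMIs per 1000000 UMIs of the class) in each library for 6 named classes; S1 to S3 are Stress, D1 is Dexamethasone, C1 and C2 are Control, and bars are exact 95% Poisson intervals, which cover counting error only. In each of the 6 classes the 3 Stress libraries lie above the 2 Control libraries.

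Tef was the 1 member called in this comparison. Of the 8 members, 4 had enough UMIs to be tested for Stress over Control in glia-like nuclei (Tef, Nfil3, Bhlhe40 and Rora). Dbp, Hlf, Bhlhe41 and Ciart were too low there, and Dbp joined the 4 in the fits with the Dexamethasone library. Dexamethasone over Control, the log2 fold change of Tef was 1.08 ± 0.34, with an adjusted p of 0.0723 by edgeR, so Tef was not called there; 5.56% of genes passed in this comparison. None of the 5 members tested was called by edgeR or DESeq2, and 1 had an unadjusted p under 0.05, as did 18.4% of all genes tested. Without the first Control and first Stress libraries together, which leaves a single Control library, the Tef value was 1.33. Dexamethasone over Stress, Tef differed by -0.73 ± 0.29 on the log2 scale, with an adjusted p of 0.257 by edgeR, so the data do not separate these groups at that threshold; 2.74% of genes passed, and none of the 5 members tested did by edgeR or DESeq2, with 1 at an unadjusted p under 0.05, as were 13.4% of all genes.

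The 3 glia-like clusters held different shares of each group, so Tef was read within each. The Nr4a3-led cluster had 31, 61 and 106 Stress, 79 Dexamethasone, and 18 and 12 Control nuclei, against 77, 31 and 45 Stress, 23 Dexamethasone, and 150 and 107 Control nuclei in the Frzb-led cluster. In the Frzb-led cluster Tef had 219, 197 and 162 CPM in Stress, 87.6 in Dexamethasone, and 44.3 and 44.1 in Control nuclei. The Stress over Control difference there was 2.05 ± 0.33 on the log2 scale, with an adjusted p of 0.0237 by edgeR within that cluster alone, where 0.234% of genes passed.

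The direction was the same in the other two glia-like clusters, without a call. In the Nr4a3-led cluster Tef had 104, 149 and 157 CPM in Stress, 90.6 in Dexamethasone, and 67.3 and 20.6 in Control nuclei, a log2 fold change of 1.52 ± 0.57 for Stress over Control with an adjusted p of 0.184 by edgeR. In the Col28a1-led cluster it had 213, 181 and 185 in Stress, 113 in Dexamethasone, and 73.7 and 38.5 in Control nuclei, a log2 fold change of 1.66 ± 0.73 with an adjusted p of 0.356. The Stress and Control libraries did not overlap for Tef in any of the 3 clusters. In each cluster Tef passed the test's filter on low counts through Stress libraries alone. In the Frzb-led cluster both Control libraries fell just below its limit. No conclusion is therefore drawn from the p-values within clusters. The share of all genes without overlap was not computed within clusters, and over all glia-like nuclei it was 29.3%, in either direction.

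**Figure D2:**
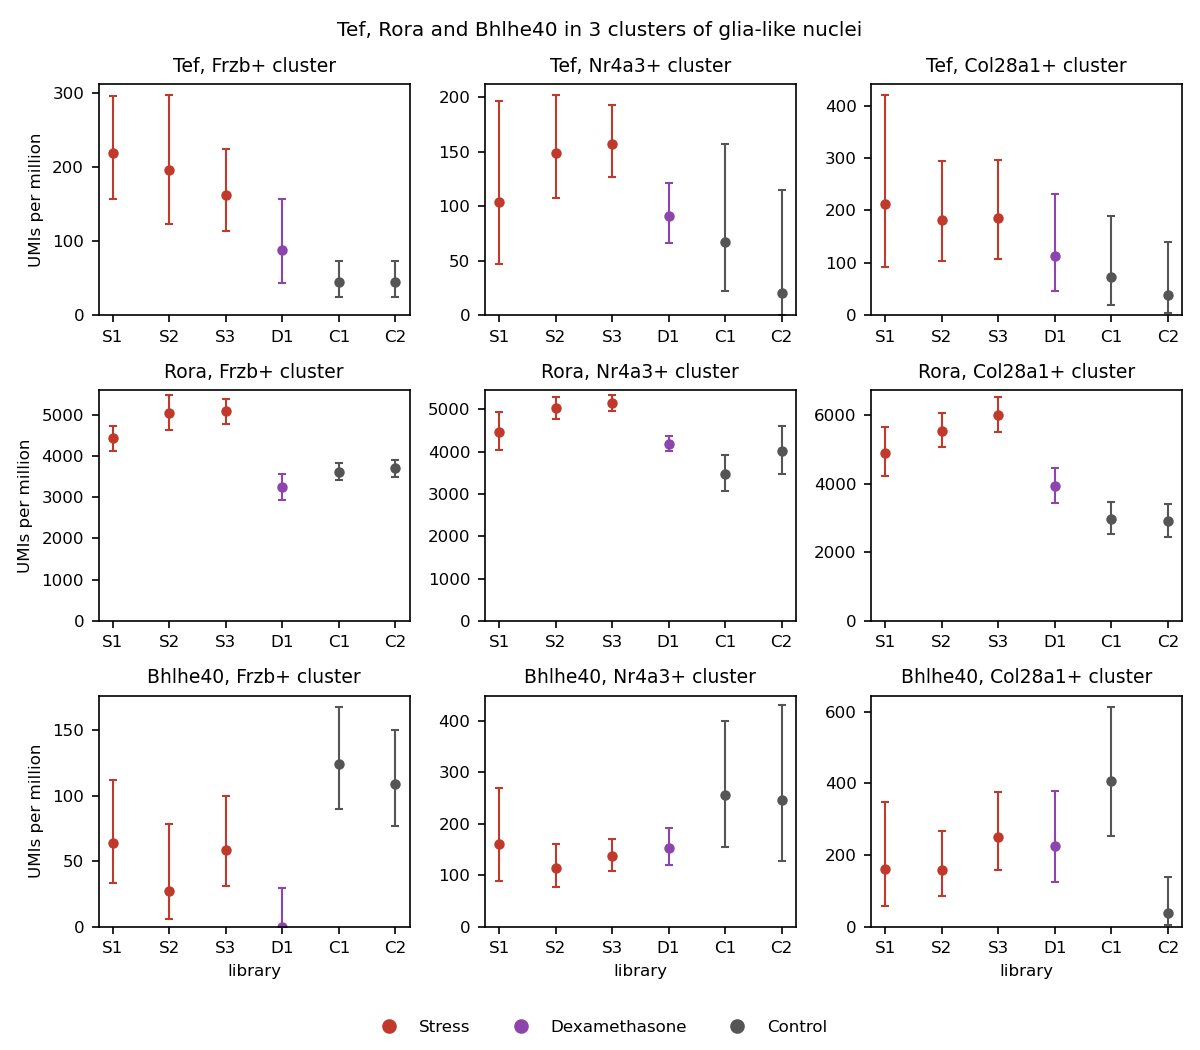
Levels (CPM, UMIs per 1000000 UMIs of the cluster) of Tef, Rora and Bhlhe40 in each library for the 3 clusters of glia-like nuclei; S1 to S3 are Stress, D1 Dexamethasone, C1 and C2 Control, and bars are exact 95% Poisson intervals. Tef and Rora are higher in every Stress library than in either Control library in each cluster, and Bhlhe40 in the Frzb-led cluster has 0 UMIs in the Dexamethasone library. The share of all genes so ordered within a cluster was not computed.

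Summed markers of some other cell types also differed between Stress and Control in the glia-like nuclei, and those of others overlapped. Smooth muscle markers, all 12 of which were detected, summed to 208 to 371 CPM in Stress, 771 in Dexamethasone and 156 to 200 in Control libraries. Lymphatic endothelial markers, 8 of 9 gene entries detected with 1 entry of Ccl21a at 0, summed to 92.9 to 264 in Stress, 226 in Dexamethasone and 60.0 to 61.3 in Control libraries. Macrophage markers (10 of 11, Cd163 at 0) summed to 20.8 to 32.2 in Stress, 75.7 in Dexamethasone and 10.7 to 15.9 in Control libraries, and pericyte markers (6 of 7, Kcnj8 at 0) to 51.1 to 66.4, 63.8 and 43.1 to 45.0. The 16 glial markers themselves summed to 8000 to 9299 in Stress, 8409 in Dexamethasone and 6155 to 7096 in Control libraries. Epithelial markers overlapped, at 366 to 865 in Stress, 497 in Dexamethasone and 608 to 1156 in Control libraries. So did the sums for neurons, fibroblasts, interstitial cells of Cajal, vascular endothelium and mesothelium, and those for T cells, B and plasma cells, mast cells and cycling cells. The part of the marker differences in the Tef result was not tested.

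Dbp, the activator with the widest daily swings in many tissues, was sparse in glia-like nuclei. It had 9, 6 and 10 UMIs in Stress, 7 in Dexamethasone, and 1 and 2 in Control libraries, which are 28.8, 12.5 and 11.1, then 10.4, then 2.14 and 4.54 CPM. The ratio of summed Dbp counts was 4.46, Stress over Control, with an exact 95% counting interval of 1.36 to 23.1. For Dexamethasone over Control the fitted log2 fold change of Dbp was 1.68, which was not called. It ran from 1.26 to 2.24 when 1 library was left out. Dbp passed the test's filter on low counts there through the first Stress library alone. Hlf had 4, 3 and 6 UMIs in Stress, 5 in Dexamethasone, and 1 in each Control library, a ratio of 3.48 with an interval of 0.788 to 31.8, which includes no difference. These intervals cover counting error only.

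Nfil3, which encodes the D-box repressor, did not pass the test in glia-like nuclei. Nfil3 had 35.2, 27.0 and 35.5 CPM in Stress, 56.4 in Dexamethasone, and 57.8 and 11.4 in Control glia-like nuclei. The 2 Control libraries spanned the whole Stress range. Its log2 fold change was -0.14 ± 0.51 for Stress and 0.77 ± 0.56 for Dexamethasone, each over Control, with adjusted p of 0.955 and 0.51 by edgeR. Without the first Control library, which leaves a single Control library, the log2 fold changes were 1.49 and 2.40, so the Nfil3 value turned on that library.

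Rora, the activator of Arntl transcription, was the member with the most UMIs in glia-like nuclei. It had 4492, 5118 and 5217 CPM in Stress, 3983 in Dexamethasone, and 3520 and 3637 in Control libraries. Every Stress library was above both Control libraries, an ordering shared by 29.3% of the genes tested as groups that do not overlap in either direction. The log2 fold change of Rora was 0.42 ± 0.17 for Stress over Control, with an adjusted p of 0.309 by edgeR, and 0.25 ± 0.24 for Dexamethasone over Control, with an adjusted p of 0.64. Without the first Control and first Stress libraries, which leaves a single Control library, the Stress value was 0.48.

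Rora was higher in every Stress library than in either Control library in each glia-like cluster, whereas the place of Dexamethasone differed. In the Frzb-led cluster it had 3241 CPM in Dexamethasone, below the 3620 and 3696 in Control nuclei, with a log2 fold change of -0.29 and an adjusted p of 0.778 by edgeR. In the Nr4a3-led cluster it had 4183 in Dexamethasone and 3472 and 4008 in Control nuclei. In the Col28a1-led cluster it had 4901, 5548 and 6004 CPM in Stress, 3923 in Dexamethasone, and 2965 and 2906 in Control nuclei, a Stress over Control log2 fold change of 0.84 ± 0.23 with an adjusted p of 0.0992 by edgeR. The values were 0.35 ± 0.20 in the Frzb-led and 0.32 ± 0.19 in the Nr4a3-led cluster, with adjusted p of 0.681 and 0.402. None of the 3 was called. The share of all genes whose Stress and Control libraries do not overlap was not computed within these clusters.

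Bhlhe40, an E-box repressor that is also induced by acute stimuli in many cells, had a negative difference in glia-like nuclei that did not pass. It had 103, 102 and 129 CPM in Stress, 131 in Dexamethasone, and 178 and 116 in Control libraries, and the Stress and Control libraries overlapped. The log2 fold change was -0.43 ± 0.24 for Stress over Control, with an adjusted p of 0.495 by edgeR, and -0.08 ± 0.32 for Dexamethasone over Control, with an adjusted p of 0.926.

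Within the Frzb-led cluster, where the share of all genes without overlap was not computed, the Stress and Control libraries did not overlap for Bhlhe40. It had 63.9, 26.8 and 58.4 CPM in Stress, 0 in the 23 Dexamethasone nuclei, and 124 and 109 in Control nuclei, from 12, 3, 13, 0, 42 and 37 UMIs. The Stress over Control log2 fold change was -1.19 ± 0.37 with an adjusted p of 0.276 by edgeR. Against a floor of 3 counts in the Dexamethasone library, Bhlhe40 was at least 4.88-fold lower in Dexamethasone than in Control nuclei of this cluster, and edgeR called it there with an adjusted p of 0.0315, where 0.303% of genes passed. That limit takes the Control count as exact. The exact counting interval of the ratio of summed Bhlhe40 counts, Dexamethasone over Control, was 0 to 0.258. In the Nr4a3-led cluster, which took 79 of the 114 Dexamethasone glia-like nuclei, Bhlhe40 had 161, 114 and 136 in Stress, 152 in Dexamethasone, and 256 and 247 in Control nuclei. The Stress over Control log2 fold change in that cluster was -0.98 ± 0.35 with an adjusted p of 0.164. How nuclei divided between the clusters and the level of Bhlhe40 within a cluster cannot be told apart here, since cluster membership was itself set by expression.

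Bhlhe41, the second E-box repressor, had 12.8, 12.5 and 6.66 CPM in Stress, 20.8 in Dexamethasone, and 12.9 and 13.6 in Control glia-like nuclei. Its summed count ratio was 0.714 for Stress over Control, with a counting interval of 0.317 to 1.65. Ciart, the repressor of CLOCK and BMAL1, had 5, 1 and 4 UMIs in Stress, 2 in Dexamethasone and 0 in both Control glia-like libraries. Against a floor of 3 counts over the Control group, Ciart was at least 1.79-fold higher in Stress, a limit of 1.09 without the first Stress library. Both limits take the Stress count as exact.

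The core clock genes that drive or repress these factors were read in the same glia-like nuclei. Of 12 core loop genes that are not among the 8, 8 were tested for Stress over Control: 1 rose (Per2), 1 fell (Arntl) and 6 did not pass, and the list's median log2 fold change was 0.60 against -0.02 over all genes tested. Arntl, which encodes BMAL1, had 9.61, 18.7 and 11.1 CPM in Stress, 11.9 in Dexamethasone, and 87.8 and 132 in Control libraries, a log2 fold change of -3.09 ± 0.35 for Stress with an adjusted p of 0.000635 by edgeR. Per2, a repressor of the loop, had 60.9, 76.8 and 54.4 in Stress, 37.1 in Dexamethasone, and 17.1 and 13.6 in Control libraries, a log2 fold change of 1.97 ± 0.38 with an adjusted p of 0.0143. Per2 lost its call without the second Stress library, without the last Stress library or without the second Control library, with adjusted p of 0.079, 0.0662 and 0.0724.

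Dexamethasone over Control, 2 of 8 tested core loop genes rose (Per1 and Nr1d2) and 1 fell, with a median of 1.11 against -0.06 over all genes. Arntl fell by 3.09 ± 0.51, with an adjusted p of 0.00127 by edgeR. Per1, which is also a direct target of the glucocorticoid receptor, rose by 1.76 ± 0.48 with an adjusted p of 0.0372, and Nr1d2, a repressor of Arntl, rose by 1.51 ± 0.30 with an adjusted p of 0.00456. In the Frzb-led cluster alone Per1 was -1.29 and Nr1d2 0.73, neither called, and Per1 was also not called with DESeq2 (adjusted p 0.138), at equal totals (0.0665) or with the stricter nucleus filter (0.0803). The Stress and Dexamethasone comparisons share the 2 Control libraries.

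**Figure D3:**
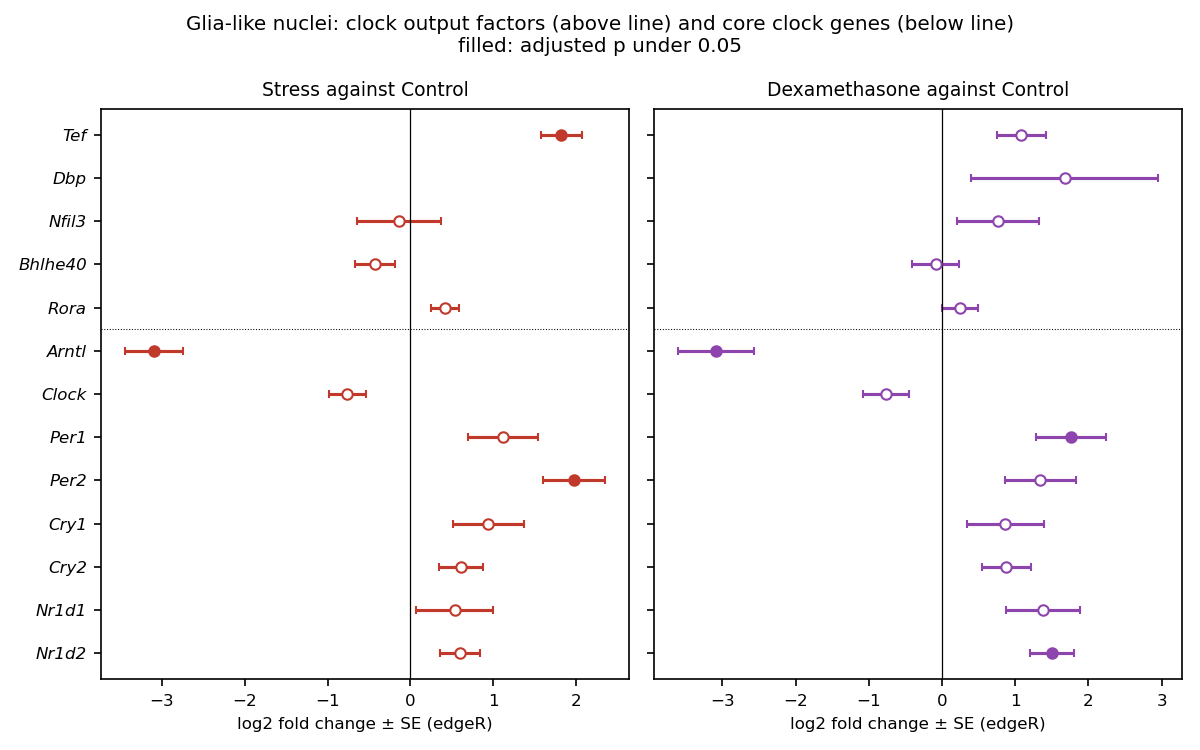
Log2 fold change with SE (edgeR, x axis) in glia-like nuclei of the tested clock output factors, above the dotted line, and core clock genes, below it, for Stress (left) and Dexamethasone (right) over Control; filled points passed an adjusted p of 0.05. Tef at 1.82 is the filled clock output factor, and Arntl is filled and near -3.09 in both panels.

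Genes that act with the clock or carry its output were read from lists. Among 10 kinases, ligases and partners of clock proteins, 1 of 8 tested rose under Stress (Usp2, a deubiquitinase) and 3 rose under Dexamethasone (Usp2, Csnk1d and Sik3). Usp2 changed by 2.08 ± 0.37 under Stress and 2.66 ± 0.42 under Dexamethasone, with adjusted p of 0.0111 and 0.000854 by edgeR. Without the last Stress library or the second Control library the adjusted p of Usp2 under Stress was 0.0892 or 0.0506, and that of Csnk1d under Dexamethasone was 0.0507 or 0.179 without the first or second Control library. In the Frzb-led cluster alone the Dexamethasone values were 0.62 for Usp2, 0.15 for Csnk1d and 0.02 for Sik3, none called, against 3.40, 1.66 and 1.74 in the Nr4a3-led cluster, where Usp2 and Sik3 were called with adjusted p of 0.00158 and 0.00419. Csnk1d was also not called with DESeq2 (0.212), the replicate block (0.132), equal totals (0.0907) or the stricter nucleus filter (0.0995). Under Stress, Usp2 was 0.97 in the Frzb-led and 2.92 in the Nr4a3-led cluster, and 1.14 with the stricter nucleus filter, with adjusted p of 0.59, 0.0194 and 0.475. Among 10 widely used clock-controlled and D-box target genes, Nampt, which makes NAD precursors, was the 1 called of 3 tested under Stress, at 1.98 ± 0.35 with an adjusted p of 0.00987, and the 1 called of 6 tested under Dexamethasone, at 2.15 ± 0.42 with an adjusted p of 0.00406. Its Stress call was lost without the last Stress library (0.0779) or the second Control library (0.0661), and in the Frzb-led cluster alone Nampt was 1.48 under Stress and 0.92 under Dexamethasone, with adjusted p of 0.501 and 0.777.

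Among 14 glucocorticoid receptor targets, 0 of 12 tested rose and 1 fell under Stress by edgeR, and 6 of 13 rose under Dexamethasone. The gene that fell, Pdk4, a kinase that restrains pyruvate use, changed by -2.17 ± 0.45 with an adjusted p of 0.0211 by edgeR. Pdk4 lost the call when any library other than the first Stress library was left out. The adjusted p by edgeR was 0.079 and 0.0892 without the second and last Stress library. The call was also lost at equal totals (0.0712) and with the replicate block (0.0764). Fkbp5, a chaperone induced by the receptor, rose by 3.69 ± 0.51 under Dexamethasone with an adjusted p of 0.000293. Per1 stands in this list too, and Tsc22d3, Zbtb16, Mt1 and Mt2 were the other four that rose. Without the second Control library the calls of Per1, Tsc22d3 and Zbtb16 were lost, with adjusted p of 0.199, 0.115 and 0.0677, and all of these 3 also lost it with DESeq2 (0.138, 0.145 and 0.597). Tsc22d3 was also not called at equal totals (0.138) or with the stricter nucleus filter (0.243).

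In neuron-like nuclei no member was called by edgeR. A Penk-led cluster of low UMI counts held 39 of the 70 Dexamethasone neuron-like nuclei, against 1, 1 and 5 Stress and 2 and 1 Control nuclei, and an Sst-led cluster had no neuronal marker among its 10 leading genes. Tef had 68.6, 53.2 and 54.4 CPM in Stress, 56.1 in Dexamethasone, and 47.8 and 25.3 in Control libraries. The lowest Stress library was above the higher Control library, and the groups did not overlap, in either direction, for 28.0% of genes tested there. The log2 fold change of Tef was 0.48 ± 0.31 for Stress over Control, with an adjusted p of 0.62 by edgeR, and 0.45 ± 0.40 for Dexamethasone over Control, with an adjusted p of 0.725. The difference between the Stress effects in glia-like and neuron-like nuclei was 1.28 ± 0.42 for Tef on the log2 scale, with an unadjusted p of 0.00496 and an adjusted p of 0.292 by edgeR, so it did not pass. In that test of the difference 0.0728% of genes passed, and of the 4 members tested 0 passed by edgeR or DESeq2 and 1 had an unadjusted p under 0.05, as did 8.46% of genes.

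The comparison over all genes in neuron-like nuclei gave no call for Stress over Control, with 0% of 7788 genes passing by edgeR, 805 at an unadjusted p under 0.05 and 20 called by DESeq2. Dexamethasone over Control likewise had 0% of 9042 genes passing by edgeR, with 995 at an unadjusted p under 0.05 and 17 called by DESeq2. Dexamethasone over Stress had 0%, with 573 at an unadjusted p under 0.05 and 0 called by DESeq2. None of the members tested passed by DESeq2 in these 3 comparisons, and 0 of 4, 1 of 5 and 1 of 5 of them had an unadjusted p under 0.05, beside 10.3%, 11% and 6.34% of all genes. The 1 in Dexamethasone over Control was Bhlhe40, which passed the test's filter on low counts through the Dexamethasone library alone.

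Hlf and Bhlhe41 were above the test's floor in neurons, unlike in glia. Hlf had 16.1, 21.4 and 17.9 CPM in Stress, 9.89 in Dexamethasone, and 6.38 and 16.9 in Control neuron-like nuclei, with a log2 fold change of 0.81 ± 0.52 for Stress over Control and an adjusted p of 0.626 by edgeR. Bhlhe41 had 16.1, 15.1 and 14.3 in Stress, 8.24 in Dexamethasone, and 27.1 and 14.1 in Control libraries, with a log2 fold change of -0.61 ± 0.43 for Stress over Control and an adjusted p of 0.65. The first Control library was the high one for Bhlhe41, and the second for Hlf.

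Rora in neuron-like nuclei had 1210, 915 and 1154 CPM in Stress, 1148 in Dexamethasone, and 864 and 719 in Control libraries. The Stress and Control ranges did not overlap, as for 28.0% of genes tested there. Its log2 fold change was 0.41 ± 0.20 for Stress and 0.45 ± 0.26 for Dexamethasone, each over Control, with adjusted p of 0.513 and 0.567 by edgeR.

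Bhlhe40 had its largest neuronal value in the Dexamethasone library. It had 2, 5 and 13 UMIs in Stress, 19 in Dexamethasone, and 2 and 2 in Control neuron-like nuclei, or 8.07, 3.97 and 9.30, then 31.3, then 3.19 and 5.62 CPM. The Dexamethasone over Control log2 fold change was 2.79 ± 0.89, with an unadjusted p of 0.00973 and an adjusted p of 0.28 by edgeR. Over Stress it was 2.15 ± 0.70, with an adjusted p of 0.602. Bhlhe40 passed the test's filter on low counts through the Dexamethasone library alone, where it was high. No conclusion is therefore drawn from these p-values. With no mitochondrial limit on nuclei the Dexamethasone over Control value was 1.71 with an adjusted p of 0.0497. Of the 19 UMIs, 14 came from the Nos1-led cluster, which held 12 of the 70 Dexamethasone neuron-like nuclei. Without the Penk-led cluster the Dexamethasone over Control value was 2.67 with an adjusted p of 0.425. Smooth muscle markers, all 12 detected, summed to 178 to 561 CPM in Stress, 1039 in Dexamethasone and 233 to 277 in Control neuron-like nuclei, and their part in this value was not tested.

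Dbp, Ciart and Nfil3 were near the floor in neuron-like nuclei. Dbp had 2, 16 and 8 UMIs in Stress, 5 in Dexamethasone, and 2 and 0 in Control libraries, a summed ratio of 4.40 for Stress over Control with a counting interval of 1.10 to 38.3. Ciart had 3 UMIs in all Stress neuron-like nuclei, 1 in Dexamethasone and 0 in Control. Nfil3 had 12 UMIs in Stress, 3 in Dexamethasone and 4 in Control.

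Outside the nervous system, Tef and Hlf had more UMIs in every Stress library than in either Control library in smooth muscle-like nuclei. Stress and Control did not overlap, in either direction, for 30.1% of genes tested in this class. Tef had 190, 268 and 279 CPM in Stress, 97.7 in Dexamethasone, and 38.7 and 0 in Control libraries, from 27, 46, 80, 29, 4 and 0 UMIs. The log2 fold change for Stress over Control was 3.23 ± 0.58, with an unadjusted p of 0.000138 and an adjusted p of 0.0791 by edgeR, beside 0.0703% of genes passing in this class. DESeq2 called it, with an adjusted p of 0.0205, and so did edgeR with the replicate block (0.00035), with the stricter nucleus filter (0.0318) and with no filter on low counts (9.65e-06). In all of these fits but the last, Tef passed the filter on low counts through Stress libraries alone. No conclusion is therefore drawn from their p-values. When 1 library was left out the fitted value ran from 2.60 to 8.36, the highest without the first Control library, which leaves the Control library with 0 UMIs and makes the fitted value no bound. The ratio of summed Tef counts was 10.4 with a counting interval of 3.99 to 38.7.

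Hlf had 77.3, 134 and 192 CPM in Stress, 87.6 in Dexamethasone, and 29.0 and 0 in Control smooth muscle-like nuclei. Its log2 fold change was 2.80 ± 0.75 for Stress over Control, with an adjusted p of 0.195 by edgeR, and ran from 2.18 to 7.54 over the 3 single libraries whose removal left Hlf in the test, again highest without the first Control library. With no filter on low counts Hlf was called, with an adjusted p of 0.0101. Where the filter was used, Hlf passed it through Stress libraries alone, like Tef. Dbp had 25 UMIs and Ciart 23 in Stress, each had 2 in Dexamethasone and each had 0 in Control smooth muscle-like nuclei, so Dbp was at least 2.27-fold and Ciart at least 2.09-fold higher in Stress against a floor of 3 counts over the group. Without the Stress library that held the most UMIs of each, these limits were 1.74 for Dbp and 1.52 for Ciart. All of these limits take the Stress count as exact. Rora had 2594, 2351 and 2634 CPM in Stress, 2235 in Dexamethasone, and 1528 and 1132 in Control libraries, a log2 fold change of 0.82 ± 0.23 with an adjusted p of 0.224.

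Nfil3, the gene of the D-box repressor, had few UMIs in smooth muscle-like nuclei. It had 5, 0 and 2 UMIs in Stress, 1 in Dexamethasone, and 7 and 2 in Control libraries, so that the first Stress library overlapped Control. The ratio of summed Nfil3 counts was 0.212 for Stress over Control, with a counting interval of 0.0670 to 0.639, and 0.0612 for Dexamethasone over Control, with one of 0.00140 to 0.442. Bhlhe40 had 2, 1 and 6 UMIs and Bhlhe41 4, 1 and 5 UMIs in Stress, while Dexamethasone had 9 of Bhlhe40 and 2 of Bhlhe41, and both had 0 in Control. Against the floor, with the Dexamethasone count taken as exact, Bhlhe40 was at least 1.65-fold higher in Dexamethasone. The Stress counts gave no bound above 1.

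In fibroblast-like nuclei Tef had 137, 298 and 378 CPM in Stress, 103 in Dexamethasone, and 40.6 and 0 in Control libraries, from 5, 15, 21, 6, 1 and 0 UMIs. Its log2 fold change was 3.63 ± 1.20 for Stress over Control, with an adjusted p of 0.129 by edgeR, beside 2.66% of genes passing. The fit rests on 1 Control UMI, and the ratio of summed counts was 16.1 with a counting interval of 2.73 to 651. Tef passed the filter on low counts there through Stress libraries alone. Without the first Control library, which leaves the Control library with 0 UMIs, the fitted value was 6.59, which is no bound. Hlf had 13, 6 and 10 UMIs in Stress, 5 in Dexamethasone, and 1 and 0 in Control fibroblast-like nuclei, a summed ratio of 11.4 for Stress over Control with a counting interval of 1.89 to 465. Rora had 3125, 2941 and 3241 CPM in Stress, 1955 in Dexamethasone, and 2479 and 2013 in Control libraries, a log2 fold change of 0.37 ± 0.29 for Stress over Control with an adjusted p of 0.577. Bhlhe40 had 14 UMIs in Stress, 2 in Dexamethasone and 1 in Control fibroblast-like nuclei, and Dbp, Bhlhe41, Ciart and Nfil3 had at most 5 in any group.

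Epithelium-like nuclei gave Tef levels of 104, 110 and 88.4 CPM in Stress, 81.5 in Dexamethasone, and 34.3 and 7.02 in Control libraries. The log2 fold change was 2.01 ± 0.53 for Stress over Control, with an adjusted p of 0.998 by edgeR, which called 0% of 5364 genes there, with 239 at an unadjusted p under 0.05 and 5 called by DESeq2. When 1 library was left out the Tef value ran from 1.46 to 4.05, the highest without the first Control library, and with no filter on low counts it was called with an adjusted p of 0.0146. Dbp had 4, 29 and 6 UMIs in Stress, 0 in Dexamethasone and 0 in both Control libraries. Against the floor over the Control group Dbp was at least 4.87-fold higher in Stress. The limit was 3.13 without the second Stress library, which held 29 of the 39 UMIs. Both limits take the Stress count as exact.

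Bhlhe40 had 26.9, 60.9 and 167 CPM in Stress, 54.3 in Dexamethasone, and 164 and 70.2 in Control epithelium-like nuclei. The Stress and Control libraries overlapped, and the log2 fold change was -0.62 ± 0.61 for Stress over Control, with an adjusted p of 0.998 by edgeR. The ratio of its summed counts was 0.557 for Stress, with a counting interval of 0.409 to 0.761, and 0.393 for Dexamethasone, with one of 0.140 to 0.899, each over Control. Rora had 46.1, 106 and 78.2 CPM in Stress, 127 in Dexamethasone, and 37.0 and 35.1 in Control libraries, a log2 fold change of 1.16 ± 0.48 for Stress over Control with an adjusted p of 0.998. Ciart had 1, 26 and 1 UMIs in Stress, 1 in Dexamethasone, and 3 and 0 in Control libraries, so 1 Stress library held most of them. Nfil3 had 9 UMIs in Stress and 1 in Control, Bhlhe41 5 and 0, and Hlf 2 and 0, and all had 0 in Dexamethasone. Different clusters made up this class in each group: the Clca4b- and Slc26a3-bearing cluster held 65, 166 and 7 Stress, 3 Dexamethasone, and 9 and 1 Control nuclei, and the Slc9a3- and Cyp2c55-led cluster 14, 13 and 18 Stress, 0 Dexamethasone, and 118 and 22 Control nuclei.

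In lymphatic endothelium-like nuclei Tef had 5, 6 and 13 UMIs in Stress, 4 in Dexamethasone, and 1 and 0 in Control libraries, a summed ratio of 6.84 for Stress over Control with a counting interval of 1.12 to 281. Bhlhe40 had 294, 99.4 and 211 CPM in Stress, 91.9 in Dexamethasone, and 99.4 and 45.0 in Control libraries of this class, and the groups overlapped. Rora had 844, 1709 and 1463 in Stress, 819 in Dexamethasone, and 1740 and 1259 in Control libraries, which overlapped too. Dbp, Hlf, Nfil3 and Ciart had 4, 4, 2 and 1 UMIs in Stress and 0 in both other groups. Macrophage-like nuclei held 2 Tef UMIs in Stress and 0 in both other groups. By edgeR, 0% of 522 genes passed for Stress over Control in lymphatic endothelium-like nuclei, with 53 at an unadjusted p under 0.05 and 0 called by DESeq2.

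Over the 4 classes of smooth muscle-, fibroblast-, epithelium- and lymphatic endothelium-like nuclei, 0 members were called by edgeR for Stress or for Dexamethasone over Control. DESeq2 called 1 for Stress, Tef in smooth muscle-like nuclei, and 0 for Dexamethasone. At an unadjusted p under 0.05 stood 2 of 3 tested members in epithelium-like, 3 of 3 in smooth muscle-like, 1 of 2 in fibroblast-like and 0 of 1 in lymphatic endothelium-like nuclei for Stress, beside 4.46%, 11.1%, 17.7% and 10.2% of all genes tested. For Dexamethasone these were 1 of 3, 2 of 5, 0 of 3 and 0 of 2, beside 8.5%, 10.6%, 12.6% and 8.72%. In the Stress fits, Tef and Hlf in smooth muscle-like nuclei passed the filter on low counts through Stress libraries alone. So did Tef in fibroblast-like nuclei, and the Stress counts of both classes are therefore no support for a rise. For Dexamethasone over Control, 0.0145% of genes passed in epithelium-like, 0.603% in smooth muscle-like, 3.80% in fibroblast-like and 0.793% in lymphatic endothelium-like nuclei.

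Read across the 6 named classes, every Stress library was above both Control libraries for Tef in 6 classes, for Dbp and Rora in 5, for Hlf in 3, for Bhlhe40 and Ciart in 2, and for Nfil3 and Bhlhe41 in 1. Every Stress library was below both Control libraries for Bhlhe41 in 1 class, the glia-like nuclei, and for the others in 0. Among the genes tested in a class, the libraries of Stress and Control did not overlap for 18.5% of genes in epithelium-like, 24.9% in lymphatic endothelium-like, 30.1% in smooth muscle-like and 32.0% in fibroblast-like nuclei. The classes of a library share its preparation and sequencing, so these counts are not independent, and the shares cover both directions and tested genes, whereas many of the member values counted are too low for the test.

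Levels over classes were also averaged over the libraries of all groups, in CPM of the class. These averages weigh Stress most, with 3 of the 6 libraries, and their SD includes the differences between groups. The orders of Dbp and Ciart are not given, since all neighbouring ranges overlapped. Rora averaged 4328 ± 734 in glia-like, 2626 ± 561 in fibroblast-like, 2079 ± 612 in smooth muscle-like, 1306 ± 407 in lymphatic endothelium-like, 1002 ± 197 in neuron-like and 71.6 ± 38.7 in epithelium-like nuclei (SD, n = 6 libraries), and 242 ± 135 in macrophage-like nuclei (n = 3 libraries). Its range in glia-like nuclei did not overlap that in fibroblast-like nuclei, the fibroblast-, smooth muscle-, lymphatic endothelium- and neuron-like ranges overlapped in that order, and the neuron-like range lay above that of macrophage-like nuclei without overlap. Tef averaged 160 ± 149 in fibroblast-like, 146 ± 118 in smooth muscle-like, 116 ± 62.9 in glia-like, 94.8 ± 78.7 in lymphatic endothelium-like, 70.8 ± 41.1 in epithelium-like and 50.9 ± 14.3 in neuron-like nuclei, and each range overlapped the next.

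Hlf was led by fibroblast-like nuclei, with 130 ± 127, and smooth muscle-like nuclei, with 86.7 ± 69.7, and averaged 14.8 ± 5.56 in neuron-like, 6.26 ± 3.94 in glia-like and 0.840 ± 1.55 in epithelium-like nuclei. Bhlhe40 averaged 238 ± 124 in macrophage-like nuclei (n = 3 libraries), 140 ± 93.0 in lymphatic endothelium-like, 126 ± 28.1 in glia-like, 90.5 ± 59.7 in epithelium-like, 57.4 ± 49.9 in fibroblast-like, 11.9 ± 12.2 in smooth muscle-like and 10.2 ± 10.6 in neuron-like nuclei. Nfil3 averaged 37.2 ± 17.7 in glia-like and 3.78 ± 2.17 in neuron-like nuclei, and these ranges did not overlap. Bhlhe41 averaged 15.8 ± 6.17 in neuron-like and 13.2 ± 4.50 in glia-like nuclei, which overlapped, and had 0 UMIs in lymphatic endothelium- and macrophage-like nuclei. Neighbours in the order of these genes otherwise overlapped in their ranges.

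Summing all kept nuclei of a library gave enough UMIs to test all 8 members. In these sums the mix of nuclei and the level per nucleus cannot be told apart. Dbp had 20.4, 21.5 and 13.4 CPM in Stress, 9.51 in Dexamethasone, and 1.58 and 1.62 in Control libraries. Its log2 fold change for Stress over Control was 3.41 ± 0.49, or 10.6-fold, with an unadjusted p of 0.000189 and an adjusted p of 0.174 by edgeR, beside 0% of 12294 genes passing, with 768 at an unadjusted p under 0.05 and 43 called by DESeq2. DESeq2 called Dbp with an adjusted p of 0.0077. Dbp passed the test's filter on low counts through Stress libraries alone, where it was high. No conclusion is therefore drawn from these p-values.

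Tef, Hlf and Ciart had the same order of groups as Dbp in these sums. Tef had 130, 103 and 117 CPM in Stress, 74.1 in Dexamethasone, and 38.5 and 24.3 in Control libraries, with a log2 fold change of 1.80 ± 0.27 for Stress over Control and an adjusted p of 0.174 by edgeR and of 0.000318 by DESeq2. Hlf had 36.7, 21.2 and 32.3 in Stress, 21.4 in Dexamethasone, and 6.32 and 5.66 in Control libraries, with a log2 fold change of 2.22 ± 0.36 and an adjusted p of 0.201 by edgeR and of 0.00925 by DESeq2. Ciart had 8.14, 13.1 and 5.08 in Stress, 2.85 in Dexamethasone, and 1.58 and 0 in Control libraries, with a log2 fold change of 3.10 ± 0.90 and an adjusted p of 0.643 by edgeR. Without the first Control library, which leaves 0 Control UMIs of Ciart, the fitted value was 7.33, and with no filter on low counts the adjusted p was 0.0199. Where the filter was used, Ciart passed it through Stress libraries alone, like Dbp. For all 4 the Stress libraries were above the Control libraries, an arrangement seen, in either direction, in 22.1% of genes.

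**Figure D4:**
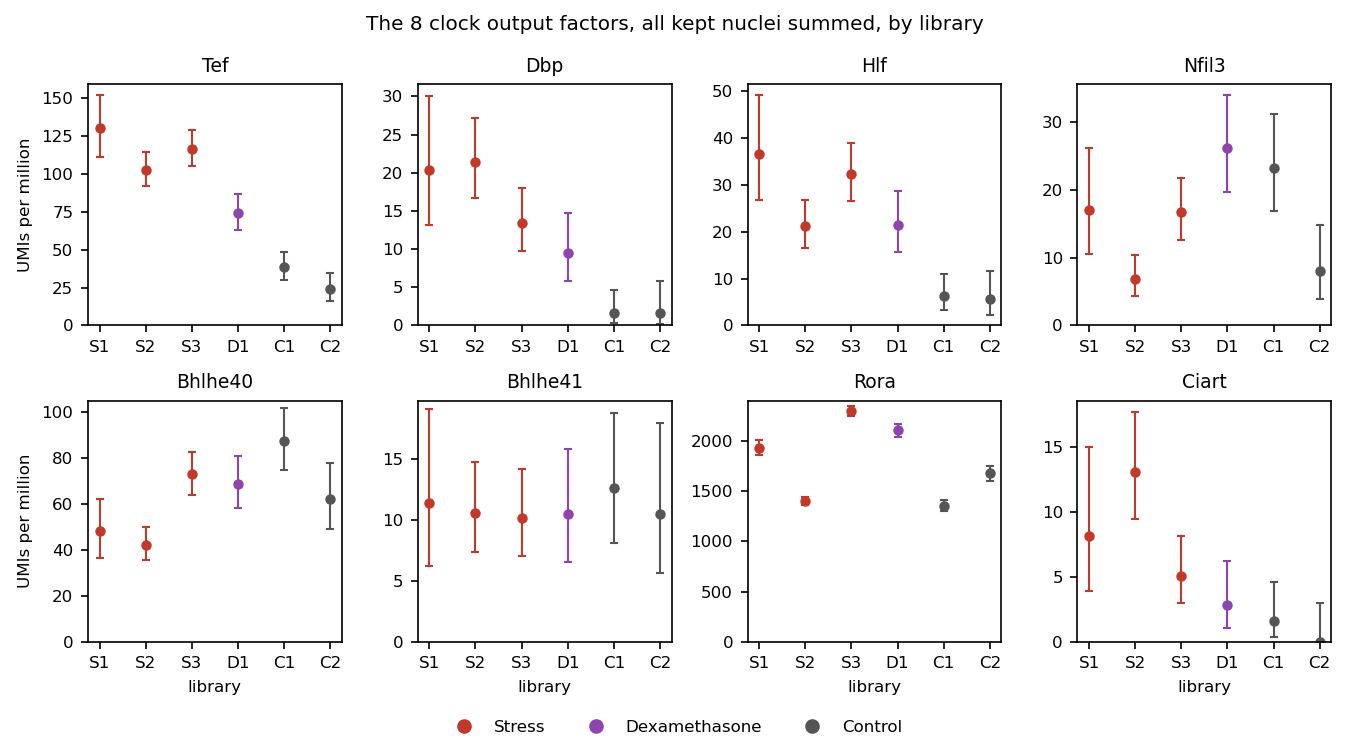
Level (CPM, UMIs per 1000000 UMIs) of each of the 8 clock output factors in each library, over all kept nuclei summed; S1 to S3 are Stress, D1 Dexamethasone, C1 and C2 Control, and bars are exact 95% Poisson intervals. Tef, Dbp, Hlf and Ciart are higher in all 3 Stress libraries than in either Control library, and the other four overlap between these groups.

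The remaining members overlapped between Stress and Control in these sums. Nfil3 had 17.1, 6.85 and 16.7 CPM in Stress, 26.1 in Dexamethasone, and 23.2 and 8.09 in Control libraries. Bhlhe40 had 48.1, 42.3 and 72.9 in Stress, 68.9 in Dexamethasone, and 87.5 and 62.3 in Control libraries, with a log2 fold change of -0.53 ± 0.29 for Stress over Control and an adjusted p of 0.841 by edgeR. Bhlhe41 had 11.4, 10.6 and 10.2 in Stress, 10.5 in Dexamethasone, and 12.6 and 10.5 in Control libraries. Rora had 1936, 1406 and 2303 in Stress, 2110 in Dexamethasone, and 1357 and 1681 in Control libraries.

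For Dexamethasone over Control in the same sums, 0 of the 8 members were called by edgeR or DESeq2, and 3 had an unadjusted p under 0.05, as did 9.95% of all genes, beside 0.237% of genes passing by edgeR. The log2 fold changes were 1.20 ± 0.34 for Tef, 2.51 ± 0.63 for Dbp, 1.79 ± 0.45 for Hlf and 1.52 ± 1.28 for Ciart (5.70 without the first Control library), with adjusted p of 0.261, 0.199, 0.199 and 0.761 by edgeR. For Stress over Control, 0 of the 8 were called by edgeR, 4 had an unadjusted p under 0.05, as did 6.25% of all genes, and DESeq2 called 3 (Tef, Dbp and Hlf). Of the 8, Dbp and Ciart entered this test through Stress libraries alone.

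The barcodes left out for mitochondrial UMIs above 5% gave a second set of molecules from the same libraries, summed per library. With no mitochondrial limit, epithelium-like barcodes numbered 300, 1093 and 176 in Stress, 198 in Dexamethasone, and 867 and 1369 in Control libraries. In the sums of the left-out barcodes, too, the mix of nuclei and the level per nucleus cannot be told apart. Tef had 77.8, 86.9 and 73.0 CPM in Stress, 57.3 in Dexamethasone, and 23.8 and 14.4 in Control libraries. Dbp had 11.4, 23.1 and 14.8 in Stress, 9.60 in Dexamethasone, and 1.80 and 0.736 in Control libraries. Hlf had 7.99, 6.25 and 13.8 in Stress, 6.60 in Dexamethasone, and 2.40 and 1.40 in Control libraries. All Stress libraries were above the Control libraries for these genes, and for Ciart, with 6.51, 11.6 and 2.41 in Stress, 5.25 in Dexamethasone, and 1.80 and 0.294 in Control libraries, and the groups did not overlap for 15.8% of all genes tested here.

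The fitted Stress over Control log2 fold changes in these barcodes were 1.99 ± 0.39 for Tef, 3.75 ± 0.60 for Dbp, 2.25 ± 0.54 for Hlf and 2.88 ± 1.08 for Ciart, each with an adjusted p of 0.861 by edgeR. Bhlhe40 had 56.1, 63.5 and 49.8 CPM in Stress, 77.5 in Dexamethasone, and 115 and 101 in Control libraries, a log2 fold change of -0.99 ± 0.29 with an adjusted p of 0.861. Bhlhe41 had 5.04, 4.94 and 10.0 in Stress, 4.65 in Dexamethasone, and 3.20 and 2.36 in Control libraries, a log2 fold change of 1.18 ± 0.47 with an adjusted p of 0.861, and in neuron-like nuclei it was -0.61 ± 0.43 with an adjusted p of 0.65. Rora had 940, 547 and 1189 in Stress, 835 in Dexamethasone, and 794 and 321 in Control libraries, and Nfil3 had 9.04, 3.83 and 8.80 in Stress, 12.7 in Dexamethasone, and 13.8 and 3.24 in Control libraries. Both overlapped between Stress and Control. The part of the mix of nuclei in the Bhlhe40 and Bhlhe41 differences was not tested. By edgeR 0% of 14216 genes passed, with 619 at an unadjusted p under 0.05 and 50 called by DESeq2. Of the 8 members, 0 passed by edgeR, 6 had an unadjusted p under 0.05, as did 4.35% of all genes, and 2 were called by DESeq2, Tef with an adjusted p of 0.00321 and Dbp with one of 9.09e-06. For Dexamethasone over Control 0% passed, with 445 at an unadjusted p under 0.05 and 35 called by DESeq2, and 0 members passed by either tool, 3 of them with an unadjusted p under 0.05, as had 2.86% of all genes.

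Among the genes whose profile over the 12 sums of glia-like and neuron-like nuclei was most like that of Tef were Per2 (Pearson's r 0.95) and Nolc1 (0.92), a nucleolar phosphoprotein. Those most like Rora were Mest (0.99), Art3 (0.99) and Prdm16 (0.99). These r are on log2(CPM + 10) and were picked as the highest of 7072 genes, and the sums of a library share its preparation and depth. The other members were not tested for Stress over Control in both classes, so no profile was sought for them.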

How the data were processed

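Single-nucleus RNA was counted in 6 10x Genomics libraries (3 Stress, 1 Dexamethasone, 2 Control), with totals of 6057994 to 14838057 UMIs. The deposited values are raw UMI counts per gene and barcode; per the file headers they were made with Cell Ranger 4.0.0 for Stress and Control and with Cell Ranger 5.0.1 for Dexamethasone, so that difference and the treatment cannot be told apart. The submitters' processing notes name Cell Ranger 5 and build mm10.

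Barcodes with at least 300 genes and at most 5% mitochondrial UMIs were kept, doublets called by Scrublet were removed (0.722% of those that passed, called per library), and nuclei were clustered with scanpy 1.11.5 (2000 variable genes, 30 components, 15 neighbours, Leiden resolution 1.0) without the 8 members and the gene lists. Clusters took the name of a class when at least 3 of its markers were in at least 10% of nuclei and a marker score exceeded 0.5 (neuron, glia, epithelium) or 1.5 (other classes), limits set after the clusters were seen. Counts were summed per library and class, where every library had at least 10 nuclei, and tested with edgeR 4.0.16 (R 4.3.3, TMM, filterByExpr, glmQLFit and glmQLFTest). Stress over Control was fitted on the Stress and Control libraries only, and the Dexamethasone comparisons on all 6 libraries, without a covariate. The difference between glia-like and neuron-like nuclei was fitted on the Stress and Control libraries with library as a block. The p-values were adjusted over all genes tested by Benjamini-Hochberg, with a threshold of 0.05. The fits were tested on simulated data. CPM are raw counts per 1000000 summed UMIs of that library and class. Count ratios and levels carry exact 95% Poisson or binomial intervals, which cover counting error only. The floor for a count of 0 is 3 counts. A limit against this floor takes the other count as exact, so the counting error of that count is not covered.

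The comparisons were Stress and Dexamethasone over Control and Dexamethasone over Stress, and the difference of the Stress effects between glia-like and neuron-like nuclei. Alternatives were DESeq2 1.42.0, no filter on low counts, equal totals, other nucleus filters (500 genes and 2%, or no mitochondrial limit), doublets kept, resolutions of 0.5 and 2.0, a replicate block, single clusters, and leaving out libraries. Leaving out either Control library, or the first Control and first Stress libraries together, left a single Control library in the fit. The sums of all kept nuclei and of barcodes above the mitochondrial limit, and the neuron fit without a low-UMI cluster, were added after the data were seen. The members and lists were chosen with earlier results of these data known. All 8 members are named with their values in glia-like, neuron-like and the 4 other tested classes and in both sums, the fitted values being given for those tested that the text discusses; list genes are named when they passed (at most 10 a comparison), and profile likeness is the 3 highest Pearson's r over the glia-like and neuron-like sums. One gene that this last rule names is not reported here.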

Additional observations from a re-analysis of the deposited data

How the results depend on the processing

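Of 245 alternative counts of members or genes called, 201 stayed within 1.5 times the reported count, or at 0 where it was 0, and 44 moved. Most of the 17 reported counts were 0, so most of the 201 are an absence of calls that stayed so. Of 999 alternative values of single genes, 888 kept direction and side of the threshold, 58 lost the call, 29 gained it and 24 changed sign, and the causes were not tested. Tef in Stress glia-like nuclei kept its call in 16 of 18 alternatives, with log2 fold changes of 1.52 to 2.07, and lost it in the Nr4a3-led and Col28a1-led clusters alone. The test of glia-like against neuron-like Stress effects called 0 members in all 14 alternatives run. Depth limits the rest: Dbp, Hlf, Bhlhe41 and Ciart were too sparse for the test in Stress glia-like nuclei, and several ratios rest on 1 to 3 Control UMIs.

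Members called in Stress glia-like nuclei were 1, and 1 to 1 when 1 library was left out, 2 without the first Control and first Stress libraries together (the pair of shallow libraries), 0 in the Nr4a3-led and 0 in the Col28a1-led cluster alone. In Dexamethasone glia-like nuclei they were 0, and 0 to 1 when 1 library was left out, 1 (Bhlhe40) in the Frzb-led cluster alone and 2 without the pair. With no mitochondrial limit 1 member (Bhlhe40) was called in neuron-like nuclei for Dexamethasone over Control and 1 for Dexamethasone over Stress. Over all kept nuclei DESeq2 called 3 and the fit without a filter on low counts 4 for Stress, and that fit called 2 for Dexamethasone. Among the barcodes above the mitochondrial limit these were 2 and 1 for Stress. In the other named classes the Stress count of 0 became 1 with DESeq2, 5 with no filter on low counts, 1 with the replicate block, 1 at resolution 0.5, 1 without the pair and 0 to 1 when 1 library was left out.

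Genes called in Stress glia-like nuclei (130) were 84 with DESeq2, 34 with the stricter nucleus filter, 251 with no mitochondrial limit, 453 without the pair and 30 to 174 when 1 library was left out, lowest without the last Stress library, and 69 without the second. In Dexamethasone glia-like nuclei (430) they were 210, then 243 with the stricter filter, 862 without the pair and 257 to 468 when 1 library was left out, lowest without the second Control library. In Stress neuron-like nuclei the count of 0 became 20 with DESeq2, 137 with no filter on low counts, 5 at equal totals and 12 with no mitochondrial limit. In Dexamethasone neuron-like nuclei the count of 0 became 17, 228, 13 and 256 in the same order, 15 with the replicate block, 5 with the stricter filter, 4 at resolution 2.0, 1 without the low-UMI cluster, and 0 to 42 when 1 library was left out, with 42, 19 and 8 without the first, second and last Stress library.

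Log2 fold changes that changed sign were these, with ranges for leaving out 1 library. In Stress glia-like nuclei Nfil3 was 0.0205 with the replicate block and 1.45 without the pair, range -0.88 to 1.49. In Dexamethasone glia-like nuclei of the Frzb-led cluster alone Nfil3 was -6.14, Rora -0.29 and Per1 -1.29, and Bhlhe40 was 0.34 without the pair, range -0.38 to 0.28. In neuron-like nuclei under Stress, Rora was -0.0372 with no mitochondrial limit and Bhlhe41 had a range of -0.94 to 0.0065. Under Dexamethasone there, Tef was -0.0992 in the Nos1-led cluster alone, and Hlf was 0.22 with the replicate block, 0.0825 with no mitochondrial limit and 0.54 without the second Control library, range -0.85 to 0.54. Dexamethasone over Stress, Tef in neuron-like nuclei was 0.30 with the stricter filter, 0.0651 at resolution 2.0 and 0.0593 without the pair, range -0.11 to 0.0585. Over all kept nuclei Nfil3 under Stress was 0.50 without the pair, range -0.93 to 0.70, and Bhlhe41 had a range of -0.36 to 0.0176. Under Dexamethasone Bhlhe40 there was 0.15 without the pair, range -0.44 to 0.16, and Bhlhe41 had a range of -0.37 to 0.0022.

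The correlations of same-numbered deviations were -0.16 and -0.02 in glia-like and 0.04 and 0.10 in neuron-like nuclei. With so few Control libraries their deviations are not independent, so these values cannot decide whether replicate numbers pair the libraries. Neuron-like clusters other than the Nos1-led one, and fibroblast- and lymphatic endothelium-like nuclei under the stricter filter, held too few nuclei in some library and were not run.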
